A study of Homo sapiens with 18 samples.

Results

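The cytosolic ribosome is built from a large and a small subunit, each a core of ribosomal RNA coated with ribosomal proteins that are needed in matched amounts. The genes of these proteins are spread over the genome and are among the most strongly transcribed of any growing cell. Their mRNAs typically begin with a C and a run of pyrimidines, the terminal oligopyrimidine or TOP sequence, which links their translation to the mTOR kinase through the RNA-binding protein LARP1. The genes were taken by name: RPL (large subunit) or RPS (small subunit) followed by a number and nothing more or only A, X, L or AL, plus RPLP0, RPLP1, RPLP2 and RPSA. This gave 82 of the 23713 rows of the table, 50 of the large and 32 of the small subunit. The rule uses no measured value, though it was chosen with earlier results of these data known.

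Their mRNA was followed in MOLM-13, a human acute monocytic leukaemia cell line, in 6 groups: cells given dTRIM24, IACS-9571 or DMSO for 24 h, and cells given dTRIM24, IACS-9571 or DMSO for 4 h. IACS-9571 is a ligand of the TRIM24 and BRPF1 bromodomains, modules that read acetylated histones. dTRIM24 couples such a ligand to one for VHL, a ubiquitin ligase receptor, so that TRIM24 protein can be degraded, and DMSO is the solvent. Each group had 3 of the 18 samples, and the labels give no dose. For every gene the authors deposited a group mean in FPKM, by name fragments scaled to transcript length and library size. The labels describe a further normalization, given below. Levels can be compared between genes, but there is no replicate error, no test was possible, and the depth of reads is unknown.

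The labels describe normalization to cell number and added ERCC spike-ins, RNAs of known sequence, and 25 of these with at least 5 FPKM in every group give a scale. In the 9 comparisons their log2 differences had a median between -0.058 and 0.023 and an SD between 0.11 and 0.22, a spread of single spike-ins that is not a replicate error. Without spike-ins and small RNAs, columns summed to between 611525 and 780926 FPKM. Of 12 myeloid markers 11 had at least 1 FPKM in every group, with CD14 at 0.21 FPKM or less. Of 10 markers of other cell types 8 stayed under 1 FPKM, with KRT18 (22.1 to 29.7 FPKM) and PECAM1 (6.63 to 9.97 FPKM) as the exceptions.

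Start sites of the members show the TOP sequence they share. RefSeq starts on GRCh38.p14, another build than the hg19 of the table, were at hand for 65 of the 82 genes. In 46 of these 65 genes (70.8%) a start was a C followed directly by 4 or more further pyrimidines (C or T), read on the gene's strand only. The same was found for 988 of 15843 protein-coding genes (6.24%). The 50 bases around the start, 30 before and 20 after it, are shown for 5 of the most abundant members, for RPLP1 and RPS25, which lie near opposite ends of the differences at 4 h, and for 3 second copies. Capitals mark the unbroken pyrimidine run that begins with a C at the start, and a line with no capitals has none.
RPS18 (chr6:33272045-33272094, plus strand): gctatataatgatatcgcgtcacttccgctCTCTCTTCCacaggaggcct
RPS27 (chr1:153990732-153990781, plus strand): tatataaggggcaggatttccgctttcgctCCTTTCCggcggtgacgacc
RPS12 (chr6:132814539-132814588, plus strand): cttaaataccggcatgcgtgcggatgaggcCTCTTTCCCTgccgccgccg
RPS24 (chr10:78033833-78033882, plus strand): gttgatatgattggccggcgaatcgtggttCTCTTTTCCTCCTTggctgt
RPL41 (chr12:56116603-56116652, plus strand): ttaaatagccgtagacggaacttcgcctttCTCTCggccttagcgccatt
RPLP1 (chr15:69452788-69452837, plus strand): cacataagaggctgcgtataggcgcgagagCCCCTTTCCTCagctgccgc
RPS25 (chr11:119018324-119018373, minus strand): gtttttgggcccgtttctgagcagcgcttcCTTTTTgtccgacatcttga
RPL36AL (chr14:49620607-49620656, minus strand): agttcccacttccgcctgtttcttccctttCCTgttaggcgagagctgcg
RPS27L (chr15:63157458-63157507, minus strand): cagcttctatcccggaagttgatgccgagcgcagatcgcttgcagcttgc
RPL10L (chr14:46651762-46651811, minus strand): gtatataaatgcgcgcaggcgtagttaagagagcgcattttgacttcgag
The run is 14 bases long in RPS24, 11 in RPLP1, 10 in RPS12, 9 in RPS18, 7 in RPS27, 6 in RPS25 and 5 in RPL41. In RPL36AL it stops after 3 bases, and RPS27L and RPL10L start with another base. Main genes lack the run too, among them RPS28, RPL4 and RPS29, the last above RPL41 in mean FPKM. Their starts are not shown. A start that lacks the run says only that these letters are not at the annotated base.

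Ribosomal protein mRNAs filled the top of the table. Of the 82 genes 80 reached 1 FPKM in a group, 66 had at least 1000 FPKM in every group, and 44 of the 50 most abundant genes by mean FPKM were members. Together they held 36.6% of the summed FPKM of genes in dTRIM24, 37.4% in IACS-9571 and 37.2% in DMSO at 24 h. At 4 h they held 36.0% in dTRIM24, 36.9% in IACS-9571 and 37.2% in DMSO. The share thus stayed within a narrow band while the summed FPKM itself differed between groups. The sum of the members was 274515 FPKM in dTRIM24, 228929 FPKM in IACS-9571 and 239668 FPKM in DMSO at 24 h. At 4 h it was 264970.0 FPKM in dTRIM24, 280762 FPKM in IACS-9571 and 290415 FPKM in DMSO. IACS-9571 and DMSO at 24 h had the lowest sums, and DMSO at 4 h had the highest. With dTRIM24 the sum differed from DMSO by 14.5% at 24 h, where all other genes summed differed by 17.6%, and by -8.76% at 4 h, where the other genes differed by -4.02%. Gene by gene, 77 of the 80 members had their lowest value in IACS-9571 at 24 h. All other genes summed were also lowest there, at 382597 FPKM, as was the median of all kept genes, 9.87 FPKM. The highest value lay in DMSO at 4 h for 50 members, in dTRIM24 at 24 h for 14, in IACS-9571 at 4 h for 13 and in dTRIM24 at 4 h for 3. These counts were not made over all kept genes, so they do not set the members apart.

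**Figure D1:**
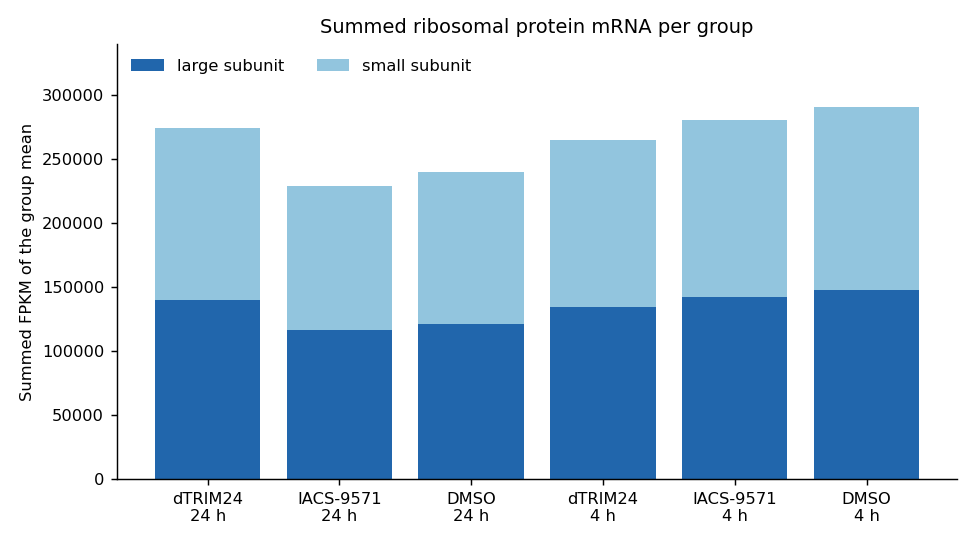
Summed FPKM of the ribosomal protein genes (y axis, from 0) in each group mean (x axis), split into large and small subunit genes. The bars of IACS-9571 and DMSO at 24 h are the lowest, and the bar of dTRIM24 at 24 h stands near those of the 4 h groups. There are no error bars because the table holds means.

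Large subunit genes summed to 139795 FPKM and small subunit genes to 134720.0 FPKM in dTRIM24 at 24 h. In DMSO at 24 h the large subunit summed to 121250.0 FPKM and the small to 118418 FPKM. Levels of single members spanned a wide range, although the ribosome needs its proteins in matched amounts. This range includes the low second copies RPL39L and RPS27L. It also includes genes whose split of reads with pseudogenes is uncertain, as described below. Among the 80 genes the SD of log2 FPKM over genes was 1.44 in dTRIM24 and 1.44 in DMSO at 24 h. The 10 most abundant members held 30.2% of the members' FPKM in dTRIM24 and 31.3% in DMSO at 24 h. The order of the members was almost the same in every group, with a Spearman rho between pairs of columns from 0.98 to 0.999 over 80 genes that share their libraries and scaling. Against this range a single member varied little, since its highest group mean was at most 1.68 times its lowest (RPLP1) and 1.28 times in the median.

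The 5 most abundant members by mean FPKM, RPS18, RPS27, RPS12, RPS17L and RPS24, all belong to the small subunit. RPS18, a protein of the subunit head, had 13801 FPKM in dTRIM24, 11718 in IACS-9571 and 12256 in DMSO at 24 h, and 12359.6 FPKM in dTRIM24, 13243 in IACS-9571 and 13697 in DMSO at 4 h. RPS27, a zinc-finger protein, had 11804 FPKM in dTRIM24, 10187 in IACS-9571 and 10961 in DMSO at 24 h, and 12818 FPKM in dTRIM24, 13129.5 in IACS-9571 and 13684 in DMSO at 4 h. RPS12, a protein of the subunit's beak, had 10138 FPKM in dTRIM24, 8539 in IACS-9571 and 9117 in DMSO at 24 h, and 9585 FPKM in dTRIM24, 10206 in IACS-9571 and 10204 in DMSO at 4 h. These 3 mRNAs were lowest in IACS-9571 at 24 h, and RPS18 alone among them was highest in dTRIM24 at 24 h. RPS24, a gene mutated in Diamond-Blackfan anaemia, an inherited failure of red cell production, had 7849 FPKM in dTRIM24, 6765 in IACS-9571 and 7042 in DMSO at 24 h, and 8127 FPKM in dTRIM24, 8366 in IACS-9571 and 8128 in DMSO at 4 h. Neighbours in this order cannot be said to differ, since the spread between samples is not known. RPS6, the small subunit protein phosphorylated by S6 kinase below mTOR, had 5615 FPKM in dTRIM24, 4579 in IACS-9571 and 4778 in DMSO at 24 h, and 5277 FPKM in dTRIM24, 5491 in IACS-9571 and 5612 in DMSO at 4 h. RPL41, the shortest ribosomal protein, had 6449 FPKM in dTRIM24, 5210.4 in IACS-9571 and 5582 in DMSO at 24 h, and 6445 FPKM in dTRIM24, 6835 in IACS-9571 and 7488 in DMSO at 4 h. Its level was the highest of the large subunit in dTRIM24 at 24 h and in all 3 groups at 4 h.

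**Figure D2:**
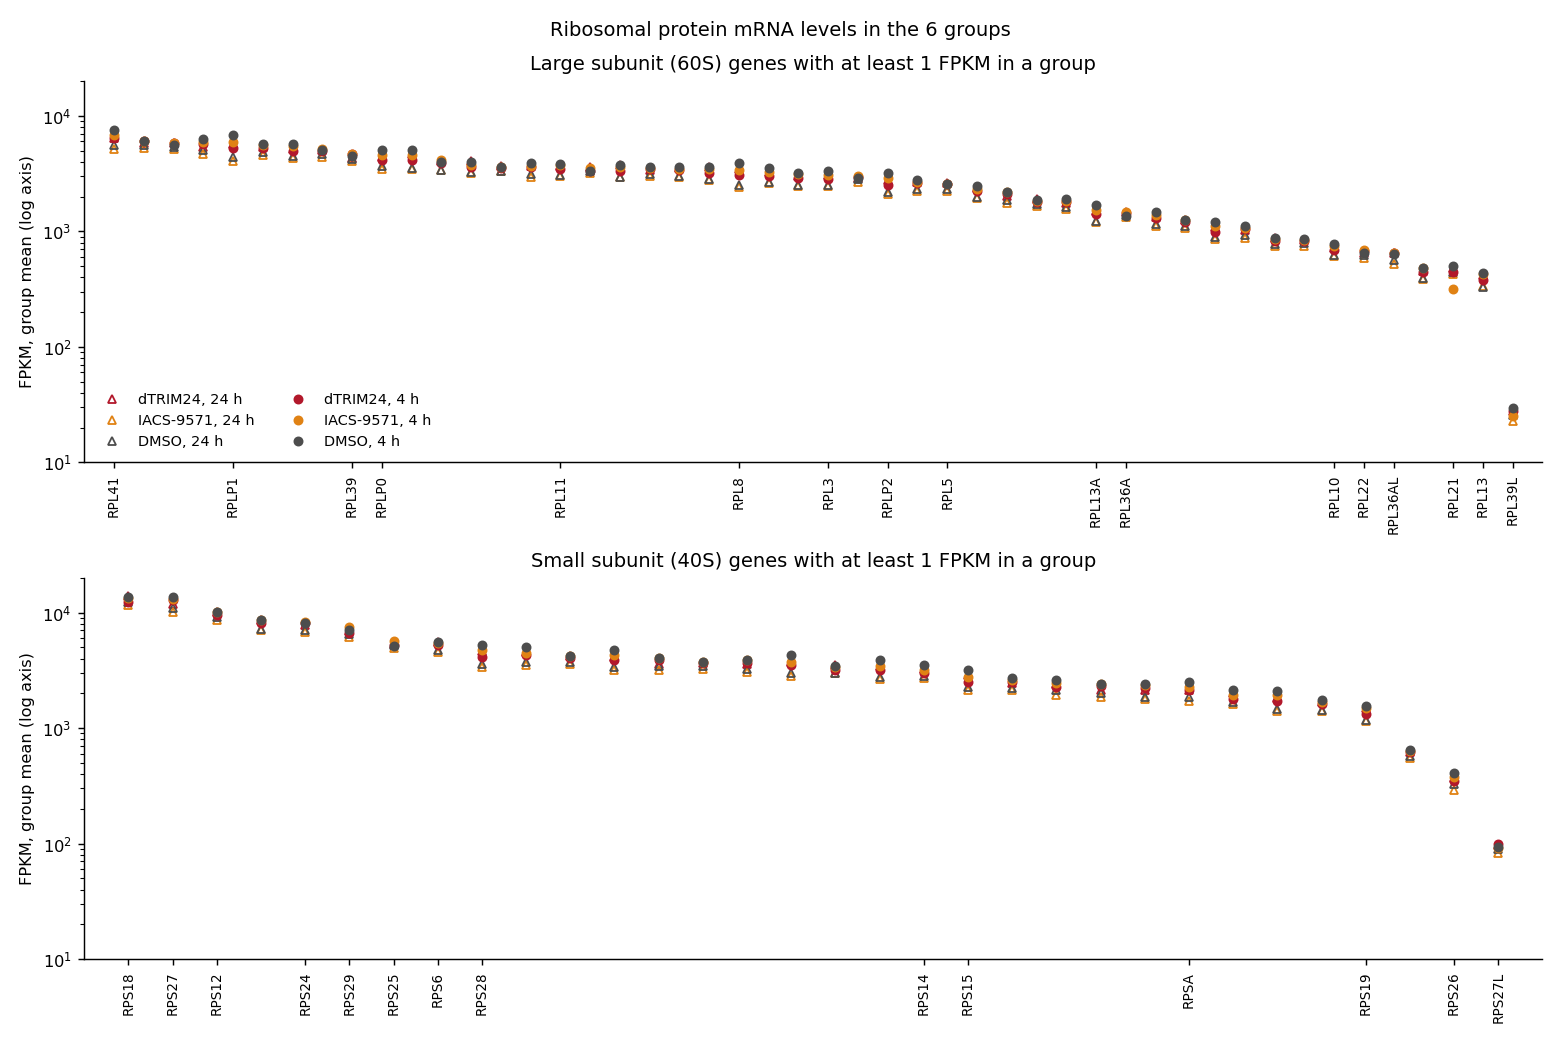
FPKM of each kept ribosomal protein gene (log y axis) in the 6 group means, large subunit above and small subunit below, ordered by mean, with names for genes described in the text. Filled circles are 4 h and open triangles 24 h. The points of a gene lie close together against the range between genes, and RPL39L and RPS27L lie far below the other members.

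At the low end were second copies, genes with abundant pseudogenes and RPL13. The 5 least abundant of the 80 were RPL39L, RPS27L, RPS26, RPL13 and RPL21. RPL39L, a copy of RPL39 known from testis, had 27.7 FPKM in dTRIM24, 22.9 in IACS-9571 and 25.5 in DMSO at 24 h, and 27.6 FPKM in dTRIM24, 25.3 in IACS-9571 and 29.6 in DMSO at 4 h. RPL39, a small protein lining the exit tunnel, had 4283 FPKM in dTRIM24, 4025 in IACS-9571 and 4246 in DMSO at 24 h, and 4647 FPKM in dTRIM24, 4629.7 in IACS-9571 and 4490.1 in DMSO at 4 h. RPS27L, a copy of RPS27 and a p53 target, had 97.8 FPKM in dTRIM24, 82.3 in IACS-9571 and 89.7 in DMSO at 24 h, and 99.6 FPKM in dTRIM24, 90.8 in IACS-9571 and 93.9 in DMSO at 4 h. Both copies thus stood under 1% of the FPKM of their pair in all 6 groups. RPS26 had 368 FPKM in dTRIM24, 290.2 in IACS-9571 and 326 in DMSO at 24 h, and 349 FPKM in dTRIM24, 381 in IACS-9571 and 406 in DMSO at 4 h. RPL13 had 416 FPKM in dTRIM24, 337 in IACS-9571 and 332 in DMSO at 24 h, and 381 FPKM in dTRIM24, 430.4 in IACS-9571 and 436 in DMSO at 4 h. RPS26 thus lay at about the level of RPL13. RPL36AL, a broadly expressed copy of RPL36A, had 655 FPKM in dTRIM24, 523 in IACS-9571 and 568 in DMSO at 24 h, and 652 FPKM in dTRIM24, 655 in IACS-9571 and 640.5 in DMSO at 4 h. RPL36A had 1467 FPKM in dTRIM24, 1324 in IACS-9571 and 1392 in DMSO at 24 h, and 1443 FPKM in dTRIM24, 1459 in IACS-9571 and 1361 in DMSO at 4 h. RPL36AL made up between 28.3% and 32.0% of its pair, a larger part than the other copies had. RPL10L, a testis copy of RPL10, stayed at or under 0.15 FPKM. RPL3L, a copy of RPL3 known from striated muscle, stayed at or under 0.11 FPKM, near a constant that 6066 rows share in a column. Their main copies were abundant. RPL10 had 713 FPKM in dTRIM24, 609 in IACS-9571 and 623 in DMSO at 24 h, and 683 FPKM in dTRIM24, 749 in IACS-9571 and 778 in DMSO at 4 h. RPL3 had 3071 FPKM in dTRIM24, 2459 in IACS-9571 and 2517 in DMSO at 24 h, and 2836 FPKM in dTRIM24, 3082 in IACS-9571 and 3354 in DMSO at 4 h.

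Some low values sit beside abundant rows of processed copies, pseudogenes that read almost as the gene does, so that the split of reads between gene and copy is uncertain. The table has 28 rows named as copies of members, of which 8 reach 100 FPKM, and these belong to RPL13A, RPL21, RPL23, RPS10, RPS26 and RPSA. RPL21, a large subunit protein, had 480.2 FPKM in dTRIM24, 427 in IACS-9571 and 440.5 in DMSO at 24 h, and 440.4 FPKM in dTRIM24, 317 in IACS-9571 and 498 in DMSO at 4 h. Its copy RPL21P28 had 2944 FPKM in dTRIM24, 2492 in IACS-9571 and 2617 in DMSO at 24 h, and 2976 FPKM in dTRIM24, 3037 in IACS-9571 and 2617 in DMSO at 4 h. RPL21 was thus low in IACS-9571 at 4 h, where its copy had its highest level. The difference of RPL21 between IACS-9571 and DMSO at 4 h, -0.65 as a difference of log2(FPKM + 1), was the largest of any member between a compound and DMSO. In the same comparison RPL21P28 was higher by 0.21, and the sum of both rows by 0.11, so the direction of RPL21 does not hold for the sum. RPL13A, which is also known for a role in interferon responses, had 1497 FPKM in dTRIM24, 1214 in IACS-9571 and 1229 in DMSO at 24 h, and 1419 FPKM in dTRIM24, 1543 in IACS-9571 and 1682 in DMSO at 4 h. Its copy RPL13AP5 was listed higher than the gene itself, at 4466 FPKM in dTRIM24, 3507 in IACS-9571 and 3491 in DMSO at 24 h, and 3810.2 FPKM in dTRIM24, 4071 in IACS-9571 and 4347 in DMSO at 4 h. The gene held 22.5% of the FPKM summed over RPL13A and its abundant copies. RPSA, a small subunit protein also known as the laminin receptor, had 2118 FPKM in dTRIM24, 1732 in IACS-9571 and 1858 in DMSO at 24 h, and 2122 FPKM in dTRIM24, 2257 in IACS-9571 and 2498 in DMSO at 4 h.

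**Figure D3:**
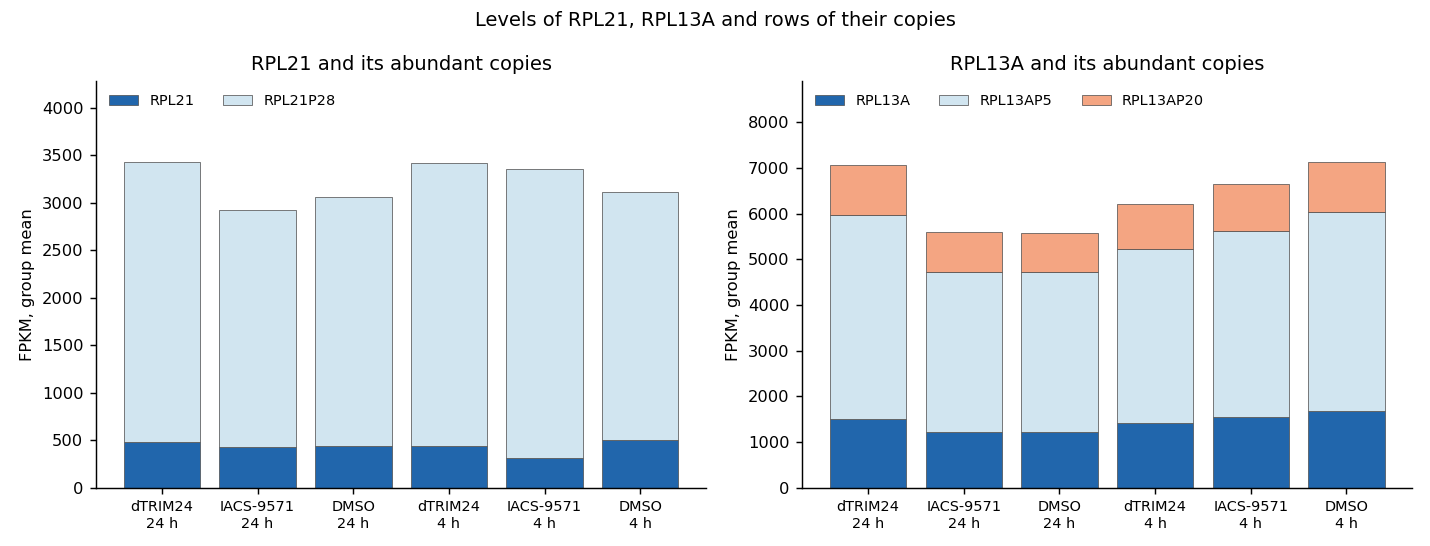
FPKM (y axis, from 0) of RPL21 and RPL13A stacked with the rows of their abundant processed copies, by group mean (x axis). The part of RPL21 is short in IACS-9571 at 4 h, where that of RPL21P28 is tall, and most FPKM listed for RPL13A lie in the rows RPL13AP5 and RPL13AP20.

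For the comparisons, genes with at least 1 FPKM in a group were kept, 11053 in all with 80 members, and spike-ins and small RNAs were left out. All differences below are of log2(FPKM + 1), the first named group minus the second, and calls are made past 0.32 on that scale (25% higher or 20% lower). Comparisons within a time share columns, and so do those of 24 h with 4 h, so their values are given side by side and were not related to each other. In bulk RNA fewer cells of a kind and less RNA per cell cannot be told apart.

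With dTRIM24 at 4 h, ribosomal protein mRNAs lay below DMSO nearly throughout. Of the 80 members 71 were lower, against 52.2% of all kept genes. The median of the members was -0.11, a level lower by 7.45%, and that of all kept genes -0.0092. The direction held with columns centred on all genes (-0.10). Quantile normalization left -0.011, but it sets each rank to one common value, and members hold most of the highest ranks. Its construction thus nearly fixes their values, here and in the comparisons below, so it cannot show whether a difference holds. Past 0.32 lower were 5 members, RPLP1, RPL8, RPS28, RPLP2 and RPS15 (6.25%), against 3.05% of all genes, and 0 were past it higher, against 1.85%. RPLP1, a protein of the stalk that recruits translation factors, had 5689 FPKM in dTRIM24, 4057 in IACS-9571 and 4365 in DMSO at 24 h, and 5271 FPKM in dTRIM24, 5976 in IACS-9571 and 6825 in DMSO at 4 h (-0.37 from DMSO at 4 h). RPL8, which lies by the peptidyl transferase centre, had 3449 FPKM in dTRIM24, 2442 in IACS-9571 and 2529 in DMSO at 24 h, and 3051 FPKM in dTRIM24, 3369 in IACS-9571 and 3938 in DMSO at 4 h (-0.37 from DMSO at 4 h). RPS28 of the small subunit had 4650.3 FPKM in dTRIM24, 3409 in IACS-9571 and 3558 in DMSO at 24 h, and 4087 FPKM in dTRIM24, 4728 in IACS-9571 and 5240.3 in DMSO at 4 h (-0.36 from DMSO at 4 h). All 3 were highest in DMSO at 4 h. At the other end stood RPL36A at 0.084, RPS27L at 0.084 and RPL22, a large subunit protein that mice can live without, at 0.073.

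Both subunits lay nearly equally far below DMSO at 4 h with dTRIM24, with a median of -0.11 for the 48 kept large and -0.12 for the 32 small subunit genes. Within the stalk the difference was -0.29 for RPLP0, -0.37 for RPLP1 and -0.34 for RPLP2. RPLP0, the base of the stalk, thus stood closer to the median of the members than its partners. The 26 members whose introns carry small nucleolar RNAs were all below DMSO, with a median of -0.15. Of the 54 others 45 were below it (83.3%), with a median of -0.10, against 52.2% of all kept genes. RPL5 and RPL11, which form a particle with 5S ribosomal RNA and bind MDM2 when free of the ribosome, stood at -0.019 for RPL5 and -0.13 for RPL11. RPS14, whose loss of a copy marks the 5q- syndrome, stood at -0.23. RPS19, the gene most often mutated in Diamond-Blackfan anaemia, stood at -0.25, and the 10 members of the anaemia list had a median of -0.093. The single genes named here thus reached from RPL5, next to DMSO, to RPLP1 and RPLP2 at the low end. In the anaemia list 1 gene lay above DMSO, at 0.043. The 46 members with the pyrimidine run at a start had a median of -0.13, and 18 kept members with a start but no run -0.11.

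With IACS-9571 at 4 h the members lay closer to DMSO. The median was -0.050 for members and 0.00011 for all kept genes, and 60 of 80 members were lower, against 49.9% of all genes. The median of the members was -0.024 with columns rescaled to the spike-ins and 0 with quantile normalization. RPL21, with the copy described above, was the 1 member past 0.32 lower, against 0.633% of all genes, and 0 were past it higher, against 1.74%. After RPL21 the lowest were RPL8, at 3369 FPKM in IACS-9571 and 3938 FPKM in DMSO (-0.23), and RPL39L (-0.22). RPS25, a small subunit protein needed by some viral internal entry sites, was the highest, at 5622 FPKM in IACS-9571 and 5163 FPKM in DMSO (0.12). RPL36A (0.10) and RPL22 (0.093) followed.

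The VHL ligand of dTRIM24 is the named change in structure between the compounds. Doses are not given, so they are matched here by time alone. At 4 h members had a median of -0.081 with dTRIM24 against IACS-9571, and all kept genes -0.020, while quantile normalization gave 0 for the members. Of the 80 members 75 were lower, against 57.5% of all genes. RPL21 was the 1 member past 0.32 higher (0.47), against 0.941% of all genes, and 0 were past it lower, against 0.896%. The sum of RPL21 and its copy differed by 0.027, far less than RPL21 alone. RPS29, a small zinc-binding protein, had 6600.1 FPKM in dTRIM24 and 7539 FPKM in IACS-9571 (-0.19). With RPS28 (-0.21) and RPLP2 (-0.19) it was among the 3 lowest members. RPS27L (0.13) and RPL39L (0.12) stood highest after RPL21, all of them members of low abundance. No interval can be put on any of these differences without values per library.

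**Figure D4:**
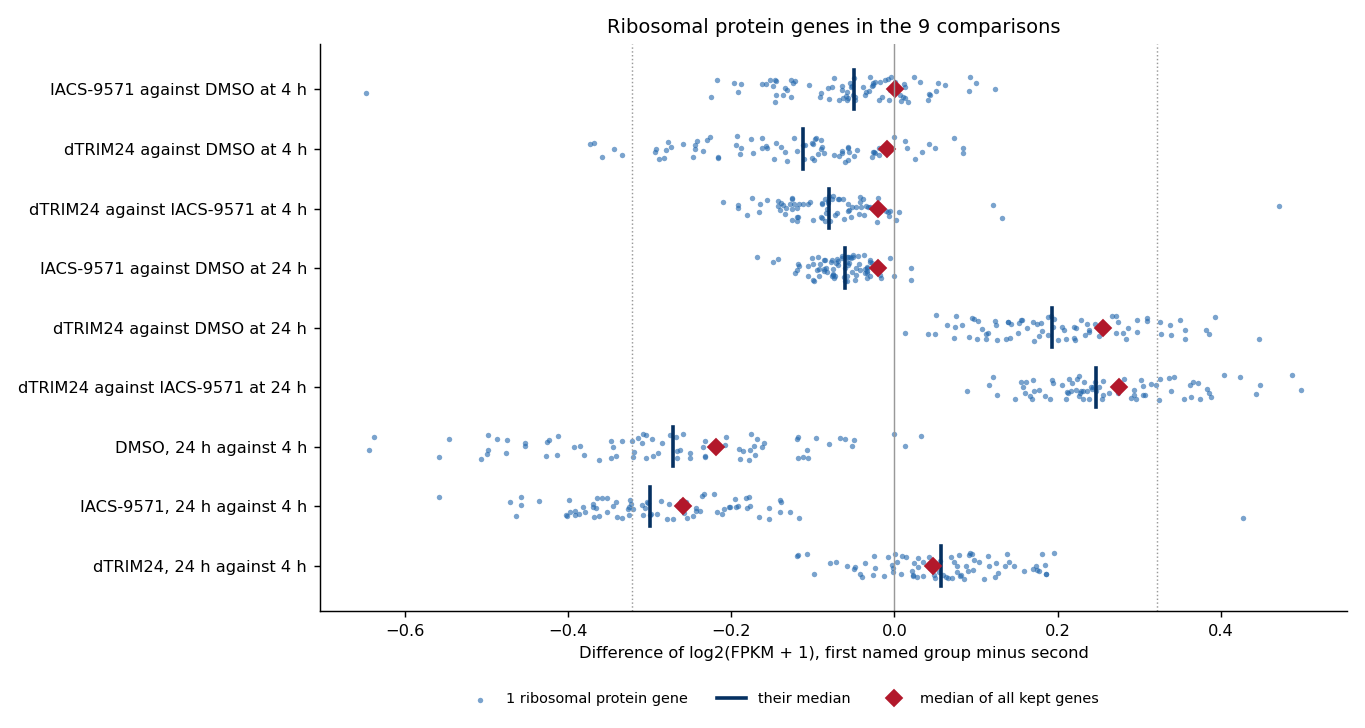
Difference of log2(FPKM + 1) of each of the 80 kept ribosomal protein genes (points) in the 9 comparisons, with their median (bar) and the median of all kept genes (diamond). Dotted lines stand at 0.32 either way. The members lie left of all genes with dTRIM24 at 4 h, while at 24 h dTRIM24 stands right of DMSO and of IACS-9571 for members and all genes alike, an order that turns round for the members with columns centred on all genes or with the GC trend taken out.

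At 24 h the order was the other way round as deposited. All 80 members were higher in dTRIM24 than in DMSO, against 96.8% of all kept genes, with a median of 0.19 for members, which turned to -0.062 with columns centred on all genes, to -0.071 with the trend on GC content taken out and to 0 with quantile normalization. All kept genes had a median of 0.26. Past 0.32 higher were 11 members (13.8%), against 36% of all genes, and 0 were past it lower, against 0.461%. The members thus passed this bound in a smaller share than genes at large as deposited. With columns centred, with quantile normalization or with the GC trend taken out 0 of them passed it. Shares of all genes past the bound are given for the deposited scale only, here and below. Counts under other scalings thus do not set the members apart from genes at large. RPL8 had 3449 FPKM in dTRIM24 and 2529 FPKM in DMSO (0.45). RPS28 had 4650.3 FPKM in dTRIM24 and 3558 FPKM in DMSO (0.39). RPL8 and RPS28 were thus among the lowest members at 4 h and among the highest at 24 h. RPL39 lay close to DMSO, at 4283 FPKM in dTRIM24 and 4246 FPKM in DMSO (0.013). The stalk genes stood at 0.26 for RPLP0, 0.38 for RPLP1 and 0.34 for RPLP2. RPL5 stood at 0.19, RPL11 at 0.27, RPS14 at 0.19, RPS19 at 0.35, RPS6 at 0.23 and RPSA at 0.19. RPL5 was the lowest of these 9 genes. Below DMSO at 4 h and above it at 24 h were 71 of the 80 members (88.8%) and 5667 of all kept genes (51.3%). Since nearly all genes lay above DMSO at 24 h, these counts largely restate those at 4 h. With columns centred, the median of the members was below DMSO at both times.

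IACS-9571 at 24 h lay slightly below DMSO. The median was -0.061 for members and -0.020 for all genes, with 78 of 80 members lower, against 57.4% of all genes. The median of the members became -0.040 with columns centred on all genes and 0 with quantile normalization. Past 0.32 were 0 members either way, against 0.769% of all genes higher and 1.18% lower. RPS26, which sits at the mRNA exit of the small subunit, was the lowest at -0.17, with 290.2 FPKM in IACS-9571 and 326 FPKM in DMSO. RPL39L (-0.15) and RPS21 (-0.14) followed, and RPL36 (0.020) and RPL13 (0.020) were the members above DMSO.

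Against IACS-9571, all 80 members were higher with dTRIM24 at 24 h as deposited, as were 98.4% of all genes. The median of the members was 0.25, which turned to -0.029 with columns centred, to -0.028 without the GC trend and to -0.0082 with quantile normalization, and that of all genes was 0.28. Past 0.32 higher were 20 members (25%), against 37.8% of all genes, and 0 were past it lower, against 0.109%. With columns centred, with quantile normalization or without the GC trend 0 of the members were past it higher, and 30 were with columns rescaled to the spike-ins. RPL8 (0.50), RPLP1 (0.49) and RPS28 (0.45) stood highest, the same genes as led the lower side against DMSO at 4 h.

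Set against 4 h, the members at 24 h were lower in DMSO and in IACS-9571, and near their 4 h level in dTRIM24. In DMSO 78 of 80 were lower at 24 h (all genes 95%), with a median of -0.27 for members and -0.22 for all genes. Past 0.32 lower were 28 members (35%), against 30.6% of all genes, and 0 were past it higher, against 0.561%. The members thus ran close to genes at large here. Their median became -0.052 and their count past 0.32 lower 4 with columns centred, and -0.042 and 1 without the GC trend. RPLP1 had 4365 FPKM at 24 h and 6825 FPKM at 4 h (-0.64), RPL8 stood at -0.64 and RPS28 at -0.56. RPL36A (0.033) and RPS25 (0.012) were the members above their 4 h level. In IACS-9571 79 of 80 were lower at 24 h (all genes 97%), with a median of -0.30 for members and -0.26 for all genes. Past 0.32 lower were 33 members (41.2%), against 31% of all genes, and RPL21 was past it higher, against 0.226%. With columns centred the median of the members was -0.040 and without the GC trend -0.016, with 0 members past 0.32 lower in either case and with quantile normalization. RPLP1 stood at -0.56, RPS28 at -0.47 and RPL8 at -0.46, again the lowest 3.

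In dTRIM24 at 24 h against 4 h the median was 0.058 for members and 0.047 for all genes, with 60 of 80 higher (all genes 61.4%). The median of the members became 0.010 with columns centred, 0.022 without the GC trend and 0 with quantile normalization. Past 0.32 were 0 members either way, against 4.54% of all genes higher and 1.61% lower. RPS15 (0.20), RPS28 (0.19) and RPL19, a protein that bridges the subunits (0.19), stood highest. RPS27 (-0.12), RPL39 (-0.12) and the ubiquitin fusion RPS27A (-0.11) stood lowest.

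How far a member differed went with the GC content of its transcripts. The GC content, by symbol from GENCODE 29 transcripts, was at hand for 79 of the 80 members and ranged from 42.3% to 62.8%. Over these 79 genes, which share libraries and scaling, the Spearman rho of the difference with GC content was -0.76 for dTRIM24 against DMSO at 4 h, where all 10242 kept genes with a value gave -0.73. For dTRIM24 against DMSO at 24 h it was 0.75, and 0.61 over all genes. For DMSO at 24 h against 4 h it was -0.70, and -0.72 over all genes. The members thus followed a relation that ran through the whole table. With dTRIM24 at 4 h the 26 members of highest GC content had a median of -0.25 from DMSO and the 26 of lowest -0.048. At 24 h the median was 0.30 for the 26 of highest and 0.13 for the 26 of lowest GC content. All 5 members past 0.32 lower with dTRIM24 at 4 h, and all 11 past it higher at 24 h, were among the 26 of highest GC content. The GC content was 52.7% for RPLP1, 62.2% for RPL8 and 53.8% for RPS28, while it was 44.9% for RPL36A. RPLP1 had the lowest GC content of those 26. RPS25, at 51.6%, lay close to RPLP1 and above the median of the members, 50.4%. With dTRIM24 at 4 h it nevertheless stood at 0.034 from DMSO, and RPLP1 at -0.37. With the trend of all genes on GC content taken out, the median of the members with dTRIM24 against DMSO at 4 h was -0.11, where all genes had -0.025. At 24 h it was -0.071, where all genes had -0.0049. The 4 h median of the members was thus about as large without the trend, and the 24 h median turned below DMSO. The trend of all genes did not take out the whole relation among the members at 4 h, where their rho with GC content was still -0.27. Their 4 h median without the trend was -0.16 for the 26 of highest and -0.092 for the 26 of lowest GC content. The count past 0.32 became 1 lower at 4 h and 0 higher at 24 h.

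**Figure D5:**
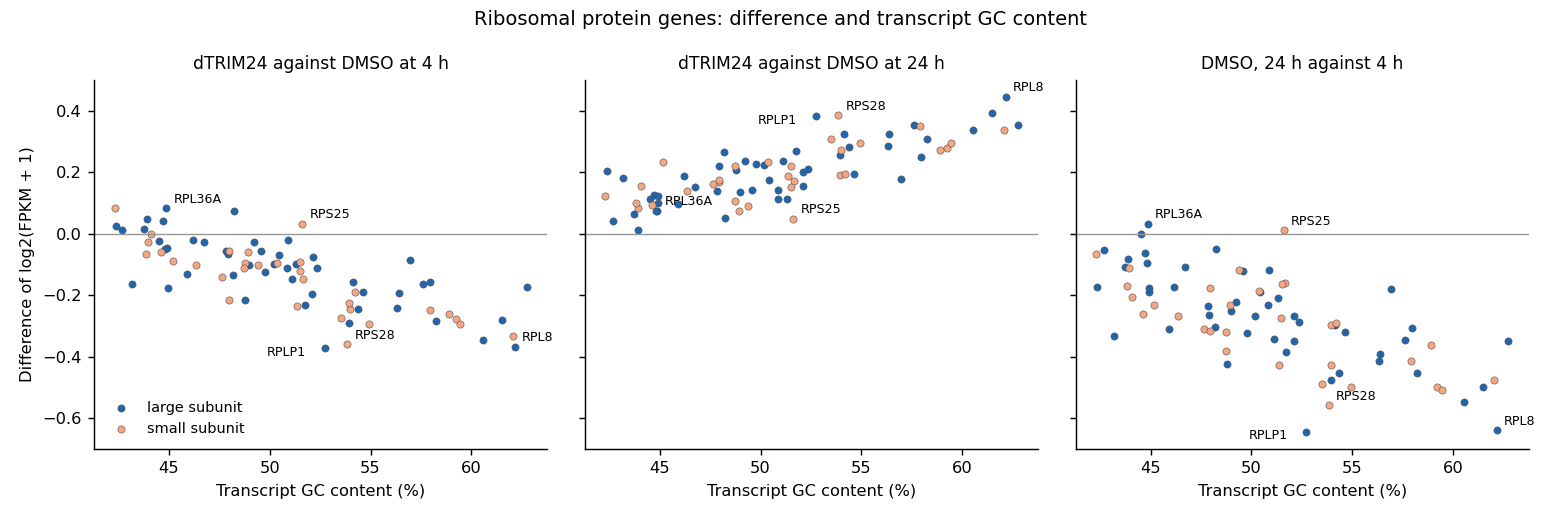
Difference of log2(FPKM + 1) (y axis) against transcript GC content in percent (x axis) for 79 ribosomal protein genes in 3 comparisons, coloured by subunit. GC-rich members such as RPL8 lie near the bottom with dTRIM24 at 4 h and in DMSO at 24 h against 4 h, and near the top with dTRIM24 at 24 h, where every member lies above 0 as deposited but the median turns below 0 with columns centred on all genes or with the GC trend taken out.

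Other genes of the ribosome and of the TOP class went only partly with the members. With dTRIM24 against DMSO at 4 h the 6 other ribosome genes had a median of -0.030, with 3 of them lower, where the members had -0.11. FAU, which encodes RPS30 fused to a ubiquitin-like protein, had 809.7 FPKM in dTRIM24, 621 in IACS-9571 and 688 in DMSO at 24 h, and 755 FPKM in dTRIM24, 802 in IACS-9571 and 879 in DMSO at 4 h. GNB2L1, the older symbol of the scaffold protein RACK1 on the small subunit, had 2011 FPKM in dTRIM24, 1618 in IACS-9571 and 1668 in DMSO at 24 h, and 1909.8 FPKM in dTRIM24, 2108 in IACS-9571 and 2353 in DMSO at 4 h. Both were highest in DMSO at 4 h and lowest in IACS-9571 at 24 h, as most members were. With dTRIM24 at 4 h FAU stood at -0.22 from DMSO and GNB2L1 at -0.30. The relatives RPL22L1 (0.19), RPL26L1 (0.087) and RPL7L1 (0.12) stood above DMSO there, unlike most members. RPL22L1, a copy of RPL22, had 32.4 FPKM in dTRIM24, 31.0 in IACS-9571 and 28.4 in DMSO at 24 h, and 31.8 FPKM in dTRIM24, 31.7 in IACS-9571 and 27.7 in DMSO at 4 h.

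Of 22 TOP genes that are not ribosomal proteins, 16 were below DMSO with dTRIM24 at 4 h, by a median of -0.045, against 52.2% of all genes, and 0 passed 0.32 lower, against 3.05% of all genes. The lowest was EEF2, the translocation factor of elongation, with 2025 FPKM in dTRIM24, 1527 in IACS-9571 and 1549.8 in DMSO at 24 h, and 1859.7 FPKM in dTRIM24, 2145 in IACS-9571 and 2286 in DMSO at 4 h (-0.30 at 4 h). EEF1D (-0.26), EEF1G (-0.23) and EIF3K (-0.22), subunits of elongation and initiation factors, followed. At 24 h 21 of the 22 were above DMSO with dTRIM24 as deposited, by a median of 0.18, which turned to -0.079 with columns centred on all genes. EEF1D (0.42) and EEF2 (0.39) were the 2 genes past 0.32 higher, against 36% of all genes, and 0 were with columns centred. Among 16 regulators and chaperones of ribosomal protein supply, the median with dTRIM24 against DMSO was 0.36 at 24 h as deposited, where all genes had 0.26, and 0.11 with columns centred. Past 0.32 higher at 24 h were 8 of the 16, against 36% of all genes. With columns centred 3 were, with no share of all genes to set beside them. At 4 h their median was 0.032. MYC, a transcription factor that drives ribosomal genes, had 259 FPKM in dTRIM24, 207 in IACS-9571 and 168 in DMSO at 24 h, and 219.9 FPKM in dTRIM24, 217 in IACS-9571 and 211 in DMSO at 4 h. LARP1, the reader of TOP mRNAs, had 62.4 FPKM in dTRIM24, 43.4 in IACS-9571 and 40.8 in DMSO at 24 h, and 52.3 FPKM in dTRIM24, 56.1 in IACS-9571 and 52.1 in DMSO at 4 h. EIF4EBP1, a cap-binding inhibitor controlled by mTOR, had 187 FPKM in dTRIM24, 121 in IACS-9571 and 123 in DMSO at 24 h, and 161 FPKM in dTRIM24, 165 in IACS-9571 and 196 in DMSO at 4 h. With dTRIM24 at 24 h MYC stood at 0.62 from DMSO, EIF4EBP1 at 0.60, LARP1 at 0.60 and the mTOR complex subunit RPTOR at 0.52. These 4 values, the largest of the 16, exceed that of the highest member in the comparison, RPL8 at 0.45. Among all kept genes the upper quartile was 0.39, and 525 of 11053 genes were at least 1.5-fold higher. The 4 genes are thus not set apart from genes at large by exceeding the members.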

How the data were processed

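For the RNA-seq of 18 samples, the submitters' processing notes name TopHat2, Cuffnorm and the build hg19. No version, annotation or strand setting is given in the sources used here. The table the authors deposited holds FPKM as 1 mean per group of 3 samples. Groups come from titles and time points, since the treatment text gives 24 h for all samples. Nothing says whether samples were separate cultures. Kept genes had at least 1 FPKM in a group, without 92 spike-in rows and 1707 small RNA rows. The planned limma test needs values per library, so none was run. Differences are of log2(FPKM + 1) between means. Copies are rows named as a member plus P and a number. Named genes were the 5 most and 5 least abundant members, up to 3 each way per comparison, second copies with their main copies, 9 members of known role, and up to 4 of each other list. RPL41, RPLP2 and RPS15 beside a count, RPL39 at 24 h, and the starts printed were chosen after values were seen. Some genes the rule names are not reported here. Members and lists were chosen with earlier results of these data known. GC content is the median over protein-coding GENCODE 29 transcripts of a symbol, found for 92.7% of kept genes, and its trend a polynomial of degree 3. The alternatives were other pseudocounts, floors, scalings and bounds and the GC trend. Steps were tested on simulated data. Calculations used matplotlib 3.10.9, scipy 1.17.1, pandas 2.3.3 and numpy 2.4.6 under Python 3.11.15.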

Additional observations from a re-analysis of the deposited data

How the results depend on the processing

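Medians of the ribosomal protein genes moved by less than 0.1 on the log2 scale in all 9 comparisons when the pseudocount was 0.1 or 0.5, when low genes were kept, when the floor was 5 FPKM, when columns were rescaled to the spike-ins, and without the 6 genes that have abundant copies, a choice made with the values in view. That bound is wider than some medians: the median for IACS-9571 against DMSO at 4 h was -0.024 with rescaling, against -0.050 as deposited. Rescaling could move the medians little, since the spike-in medians already lay between -0.058 and 0.023. Centring takes out a shift shared by all genes, which the deposited scale keeps, so it measures another quantity. With columns centred on the all-gene median, the median for dTRIM24 at 24 h turned to -0.062 against DMSO and to -0.029 against IACS-9571. Centring gave -0.052 for DMSO and -0.040 for IACS-9571 at 24 h against 4 h. With the trend on GC content taken out, dTRIM24 at 24 h stood at -0.071 from DMSO and -0.028 from IACS-9571, while DMSO stood at -0.042 and IACS-9571 at -0.016 at 24 h against 4 h. Quantile normalization gave -0.011 for dTRIM24 against DMSO at 4 h, -0.0082 for dTRIM24 against IACS-9571 at 24 h, and 0 for dTRIM24 against DMSO at 24 h and for DMSO and IACS-9571 at 24 h against 4 h. It also gave 0 for IACS-9571 against DMSO at 4 h and at 24 h, for dTRIM24 against IACS-9571 at 4 h and for dTRIM24 at 24 h against 4 h. It sets each rank to one common value, and the members hold most of the highest ranks, so its construction nearly fixes their values. Counts past 0.32 moved by over 1.5 times in 4 of 18 cases with centring, in 5 with the GC trend taken out, in 6 with quantile normalization, in 7 with a bound of 1.5-fold, in 3 without the genes with copies and in 0 with either pseudocount, no filter, the floor of 5 FPKM or rescaling. The counts under other pseudocounts, and the centred values of other lists, were added with the values in view. Counts under other scalings have no share of all genes beside them. The 28 members lower in DMSO at 24 h against 4 h became 4 with centring, 1 with quantile normalization or without the GC trend, and 2 at 1.5-fold. The 33 lower in IACS-9571 at 24 h against 4 h, the 11 higher with dTRIM24 against DMSO at 24 h and the 20 higher with dTRIM24 against IACS-9571 at 24 h became 0 under each of these 4 settings. The 5 lower with dTRIM24 against DMSO at 4 h numbered 5 with centring and became 1 without the GC trend and 0 with quantile normalization or at 1.5-fold. Leaving out replicates was not run because values per library were not analysed here. No paired analysis was possible because the columns are group means and carry no replicate number. Read depth is unknown, and without a replicate error no difference can be tested, whatever its size.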
